A study of Apis mellifera with 12 samples.

Results

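The skipped exon events of honey bee (Apis mellifera) worker antennae are described here: exons that some transcripts of a gene hold and others leave out. The deposited table of such events has 288 rows, and all rows were taken except the 10 rows of 3 genes that are not analysed here, which leaves 278 events in 206 genes. The 5 deposited splice tables hold 491 events in all. The choice used gene names only. Antennal total RNA was read on the DNBSEQ platform in 12 libraries, 3 each from defenders, foragers (workers that gather nectar and pollen), nurses (workers that feed brood) and newly emerged workers. The sources used here give no ages, colonies, numbers of bees or account of the defenders' behaviour, and nothing in the labels says whether the 3 libraries of a group came from separate bees. P-values therefore measure the spread between these libraries, which may be technical.

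Splicing joins the exons of a newly made RNA. A cassette exon is spliced in or skipped depending on the strength of its splice sites and on RNA-binding proteins that favour or block their use. In this way 1 gene can give several proteins, and genes of muscle, ion channels and synapses are well known in insects for using it. An exon whose length is a multiple of 3 can be left out without shifting the reading frame of what follows.

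The measure is the inclusion level, as the authors deposited it for each event and library. It runs from 0 (always skipped) to 1 (always included). It is an estimated share within 1 event, that is, for the exon between its given neighbouring exons. It is not a share of all transcripts of the gene, so the same exon can have different levels in different events. The reads behind each level are not given, so the depth of a single value is unknown. Events carry the gene's name with a running number (TpnT, TpnT.1, TpnT.2). Exon positions are those of the splice table, counted from 1; the table names no genome build, chromosome or strand. Every event's exon and its neighbours lay within the bounds of the gene of the same name in the NCBI gene list for Amel_HAv3.1. Of the 206 genes, 196 have only a LOC identifier, for which no name or role is given here, and 10 genes with 18 events have a symbol. Sequences of the exons are not shown, since none was among the sources used here.

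The list of events had already been narrowed on the values described below. In each of the 288 events, the largest difference between the mean levels of any 2 of the 4 groups was at least 0.200667, with a median of 0.266333. The events nearest to that bound were LOC410980.1 at 0.200667 and LOC411723.1 and LOC410108.1 at 0.201667 each, and no event lay below it. No source used here states the rule by which the authors chose events. Counts of events that passed a test are thus counts within a list where large differences were already required, not a rate over the exons of the antenna. Adjusted p-values are given only to set a difference against the spread between libraries. Of the 278 events, 268 reached a difference of 0.2 in a comparison with newly emerged workers, and 10 reached it only between other groups.

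Libraries of 1 group resembled each other, and the newly emerged libraries stood apart from the rest. Across the 278 events, correlations of inclusion between libraries of the same group were 0.771 to 0.887. Between defender and forager libraries they were 0.72 to 0.82, between defender and nurse libraries 0.679 to 0.784, and between forager and nurse libraries 0.658 to 0.743. With newly emerged libraries they were 0.285 to 0.373 for defenders, 0.199 to 0.339 for foragers and 0.281 to 0.433 for nurses. These are descriptions across events chosen for their differences. The first principal component held 51.8% of the variance and placed all 9 libraries of defenders, foragers and nurses between 0.66 and 1.44, against -3.16 to -2.81 for newly emerged workers. The second, with 12.3%, placed nurses at 1.05 to 1.70, against -0.86 to -0.29 for foragers and defenders.

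**Figure D1:**
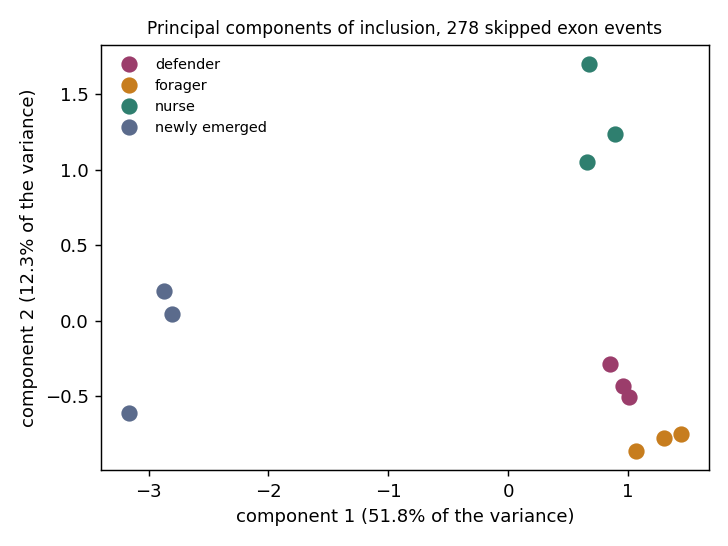
Each point is 1 library, placed by the first principal component (x axis, 51.8% of the variance) and the second (y axis, 12.3%) of inclusion levels over the 278 events. The newly emerged libraries lie between -3.16 and -2.81 on the x axis and the other 9 between 0.66 and 1.44; nurses lie highest on the y axis.

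An event is called here when limma's moderated test, fitted to all 288 events with Benjamini-Hochberg adjustment, gave an adjusted p under 0.05. Over the 4 groups, 229 of 278 events (82.4%) in 168 genes were called by the F test, against 81.6% of the whole table, and 49 were not. Because the 278 events make up most of the 288, these shares say nothing particular about them. Among the 229, newly emerged workers had the highest mean in 102 and the lowest in 107.

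Events in which all 3 libraries of a group lay above or below the other 9 were mostly those of the newly emerged workers. This held for them in 142 of the 278 events (49.3% of the table), with 70 below and 72 above. It held for defenders in 5 events (1.74% of the table), for foragers in 14 (4.86%) and for nurses in 10 (3.47%). Defenders and foragers together lay apart from nurses and newly emerged workers in 31 events of 24 genes (10.8% of the table), 22 of them below and 9 above. The other ways of pairing the groups were rarer: defenders with nurses in 3 events and foragers with nurses in 4 (1.39% of the table each).

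Against newly emerged workers, called events went in both directions in about equal number. In nurses, 190 of 278 events in 142 genes were called (68.3%, against 69.4% of the table). Of these, 101 had higher inclusion (38.5% of the table) and 89 lower (30.9%), and 49 differed by at least 0.3. Libraries of nurses and newly emerged workers did not overlap in 195 events (70.5% of the table). In foragers, 218 events in 157 genes were called (78.4%, against 76.7%), 105 higher (37.5%) and 113 lower (39.2%), and 52 differed by at least 0.3. Libraries did not overlap in 213 events (74.7%). In defenders, 203 events in 152 genes were called (73%, against 72.2%), 92 higher (33.7%) and 111 lower (38.5%), and libraries did not overlap in 216 events (78.1%). The median absolute difference in inclusion was 0.209 for nurses, 0.222 for foragers and 0.21 for defenders.

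**Figure D2:**
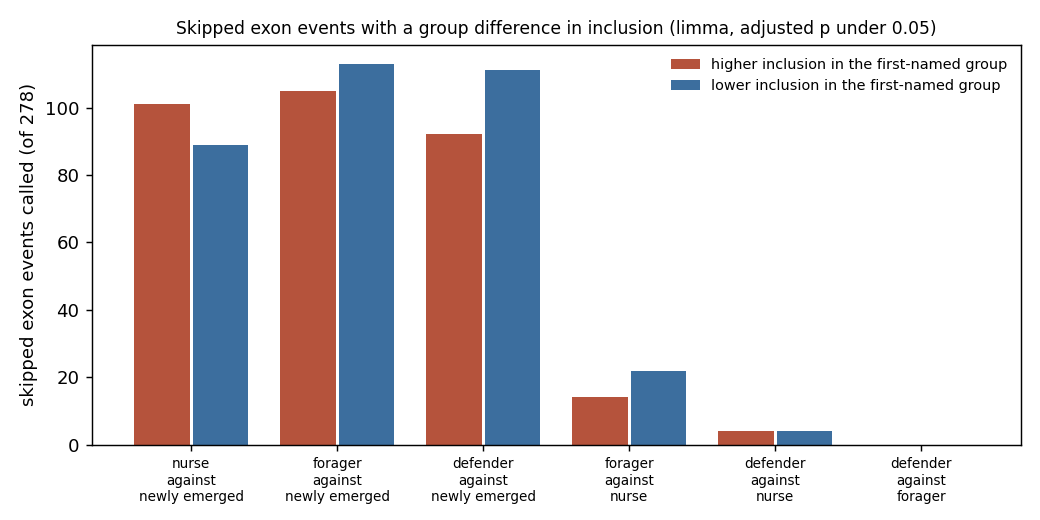
Bars give, for each of the 6 comparisons (x axis), the number of the 278 events called by limma at an adjusted p under 0.05 (y axis), in red with higher and in blue with lower inclusion in the first-named group. Counts are 190, 218 and 203 in the comparisons with newly emerged workers, 36 and 8 in those with nurses, and 0 between defenders and foragers.

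Of 7 events in 3 genes of muscle and the cytoskeleton, 3 were called higher and 4 lower in defenders than in newly emerged workers, 3 higher and 3 lower in foragers, and 2 higher and 3 lower in nurses. With 72.2%, 76.7% and 69.4% of the whole table called in those groups, these counts are near the background. TpnT encodes troponin T, the subunit that anchors the troponin complex to tropomyosin on the thin filament. Its 31-base exon (positions 2068303 to 2068333) had inclusion levels of 0.883, 0.895 and 0.904 in defenders, 0.882, 0.943 and 0.925 in foragers, 0.66, 0.738 and 0.733 in nurses and 0.329, 0.373 and 0.353 in newly emerged workers. Newly emerged workers were lowest, nurses came next, and defenders and foragers overlapped at the top. The differences from newly emerged workers were 0.359 ± 0.036 in nurses (SE; limma adjusted p = 6.1e-05), 0.565 ± 0.036 in foragers (5.3e-07) and 0.542 ± 0.036 in defenders (1e-06).

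The other TpnT exons separated defenders and foragers from the rest. The 18-base exon of TpnT.1 (2072545 to 2072562) had 0.455, 0.48 and 0.502 in defenders and 0.533, 0.489 and 0.539 in foragers, against 0.348, 0.263 and 0.335 in nurses and 0.344, 0.338 and 0.292 in newly emerged workers. Nurses and newly emerged workers overlapped, at a difference of -0.00933 (adjusted p = 0.82). The 79-base exon of TpnT.2 (2077168 to 2077246) went the other way, with 0.51, 0.503 and 0.422 in defenders and 0.44, 0.53 and 0.395 in foragers, against 0.655, 0.654 and 0.64 in nurses and 0.689, 0.716 and 0.736 in newly emerged workers.

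TpnI encodes troponin I, the subunit that holds back the interaction of actin and myosin at low calcium. The inclusion level of its 101-base exon (14386005 to 14386105) was 0.532, 0.524 and 0.42 in defenders, 0.461, 0.526 and 0.455 in foragers, 0.682, 0.69 and 0.682 in nurses and 0.8, 0.817 and 0.831 in newly emerged workers. The same exon measured with another neighbour, in TpnI.1, averaged 0.484 ± 0.043 in defenders, 0.459 ± 0.069 in foragers, 0.608 ± 0.023 in nurses and 0.817 ± 0.010 in newly emerged workers (SD, n = 3 each). A second exon of 101 bases in TpnI.2 (14386854 to 14386954) had 0.688, 0.474 and 0.517 in defenders, 0.723, 0.444 and 0.524 in nurses and 0.76, 0.895 and 0.826 in newly emerged workers. In foragers it spread from 0.378 to 0.818, and the F test over the groups gave an adjusted p of 0.092. In osp, known from Drosophila as outspread, the 403-base exon was higher than in newly emerged workers by 0.175 in nurses, 0.262 in foragers and 0.195 in defenders (limma adjusted p = 0.026, 0.0032 and 0.016).

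Levels of several muscle transcripts differed between the same groups. The summed level of the 7 tested muscle marker genes of 8 listed, TpnT and TpnI among them, was 1285 to 1722 CPM (counts scaled to library size) in defenders, 1117 to 1451 in foragers, 1325 to 2056 in nurses and 2639 to 3023 in newly emerged workers, and none of the 7 was at 0. Not every gene followed the sum. By edgeR, TpnCIIa, TpnCIIb, TpnCIIIa and TpnT were lower than in newly emerged workers in all 3 groups. TpnI and TpnCI were lower in foragers and defenders only. In nurses TpnI was not called (adjusted p = 0.12), nor was TpnCI, at 251 CPM against 211 (0.48). TpnCIIIb was called in no group (0.64 in nurses, 0.99 in foragers and 0.68 in defenders). In bulk tissue, fewer cells of a type and less RNA per cell cannot be told apart. The part of muscle content in the inclusion levels was not tested. TpnT itself had 336 CPM in defenders, 244 in foragers and 488 in nurses, against 912 in newly emerged workers. Its log2 fold changes were -1.44, -1.90 and -0.90 (edgeR adjusted p = 0.001, 0.00013 and 0.016).

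LOC409843 was among the genes with most events, 6, and among the most abundant host genes. The inclusion level of its 121-base exon (12573405 to 12573525) was 0.866, 0.901 and 0.985 in defenders, 0.949, 0.956 and 0.986 in foragers, 0.534, 0.556 and 0.706 in nurses and 0.27, 0.349 and 0.313 in newly emerged workers. Defenders and foragers overlapped near full inclusion, nurses lay between, and newly emerged workers were lowest. The 118-base exon of LOC409843.4 (12574268 to 12574385) gave the opposite order, with 0.043, 0.035 and 0.007 in defenders, 0.025, 0.014 and 0.014 in foragers, 0.235, 0.275 and 0.133 in nurses and 0.51, 0.423 and 0.446 in newly emerged workers. The gene's level averaged 2026 CPM in defenders, 1375 in foragers and 2059 in nurses, against 4513 in newly emerged workers. It was lower by edgeR in all 3 comparisons with newly emerged workers, with log2 fold changes of -1.16, -1.71 and -1.13 (adjusted p = 0.00072, 3.7e-05 and 0.001).

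**Figure D3:**
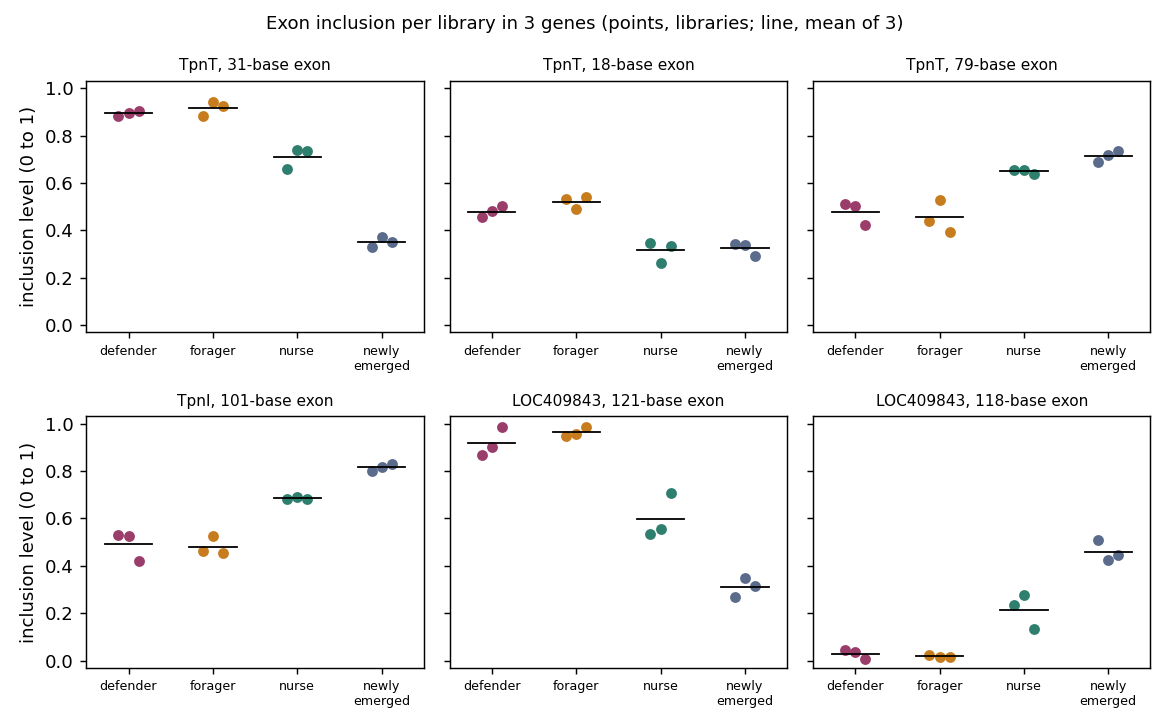
Inclusion level from 0 to 1 (y axis) of 6 exons in TpnT, TpnI and LOC409843, by group (x axis); points are libraries and lines the mean of 3. In the 31-base TpnT exon the newly emerged libraries lie between 0.329 and 0.373 and the defender and forager libraries between 0.882 and 0.943, and the 118-base exon of LOC409843 lies below 0.05 in defenders and foragers.

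In some genes equally long exons moved against each other. In 5 genes, 2 different exons of the same length were among the events. In 3 of these genes both were called in foragers against newly emerged workers, each time 1 higher and 1 lower. Of the whole table, 37.5% was called higher and 39.2% lower in that comparison, so the count of 3 genes is not read as a pattern. In TpnI and LOC100578899 only 1 of the 2 was called in that comparison, and both 101-base exons of TpnI had lower means in foragers (0.481 and 0.614) than in newly emerged workers (0.816 and 0.827). GluCl encodes a glutamate-gated chloride channel, an inhibitory receptor of insect neurons. Its 68-base exon at 5206092 to 5206159 had 0.592, 0.53 and 0.568 in defenders, 0.55, 0.62 and 0.544 in foragers, 0.538, 0.57 and 0.52 in nurses and 0.302, 0.312 and 0.304 in newly emerged workers. Its 68-base exon at 5195287 to 5195354, in GluCl.2, had 0.308, 0.332 and 0.314 in defenders, 0.268, 0.349 and 0.33 in foragers, 0.423, 0.441 and 0.337 in nurses and 0.554, 0.516 and 0.566 in newly emerged workers. The newly emerged libraries lay apart from the other 9 in both exons. The gene's level was not called by edgeR in any of these comparisons (adjusted p = 0.26 in defenders, 0.069 in foragers and 0.79 in nurses).

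The same was seen for the 104-base exons of LOC409843. The exon of LOC409843.3 averaged 0.535 ± 0.15 in defenders, 0.682 ± 0.11 in foragers, 0.384 ± 0.017 in nurses and 0.222 ± 0.027 in newly emerged workers (SD, n = 3 each). The exon of LOC409843.2 averaged 0.251 ± 0.090, 0.144 ± 0.054, 0.366 ± 0.031 and 0.545 ± 0.037 in those groups. In LOC725782, the 86-base exon at 15831801 to 15831886 averaged 0.398 ± 0.035 in defenders, 0.441 ± 0.082 in foragers, 0.334 ± 0.050 in nurses and 0.149 ± 0.0068 in newly emerged workers. Its counterpart at 15831255 to 15831340 averaged 0.62 ± 0.030, 0.608 ± 0.060, 0.615 ± 0.044 and 0.838 ± 0.027. In both exons of LOC725782 the newly emerged libraries lay apart from the other 9. Of all 278 events, 40 events of 18 genes had an exon that is also listed in the authors' table of mutually exclusive exons. Which of the pairs above are among them is not given here.

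**Figure D4:**
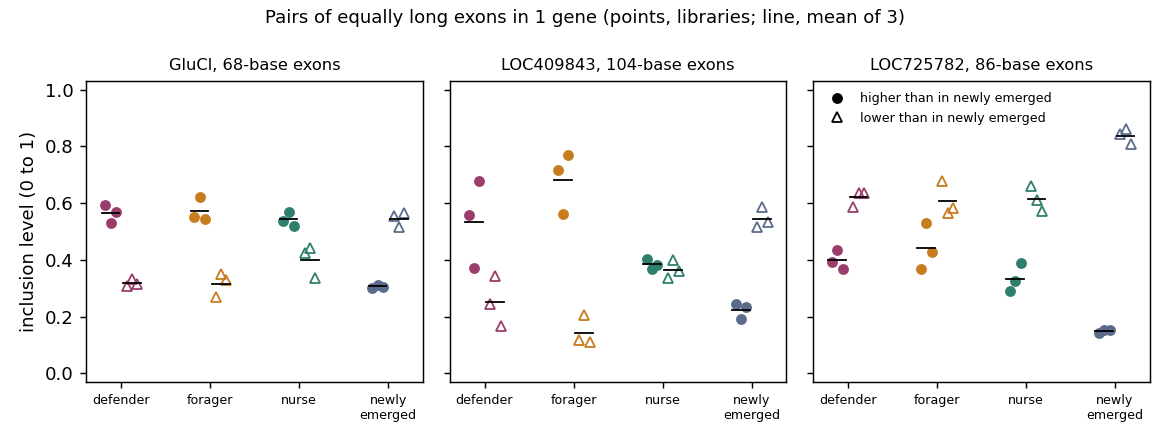
Inclusion level from 0 to 1 (y axis) of pairs of equally long exons in GluCl, LOC409843 and LOC725782, by group (x axis); points are libraries, lines the mean of 3, filled circles and open triangles the 2 exons. In each gene 1 exon is higher and its counterpart lower than in newly emerged workers.

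Further events lay in genes of channels and synapses. Of 5 in the channel genes GluCl and LOC100578899, 4 were called by the F test. Of 2 in the synapse genes Syx1A and Glurb, neither was, beside 81.6% of the whole table. A 36-base exon of GluCl.1 (5183103 to 5183138) had 0.515, 0.524 and 0.512 in defenders and 0.492, 0.474 and 0.51 in foragers, against 0.613, 0.646 and 0.62 in nurses and 0.669, 0.726 and 0.745 in newly emerged workers. All 4 groups were apart from each other. Its difference in nurses, -0.087, was called at an adjusted p of 0.037, but no longer when newly emerged replicate 2 or 3, nurse replicate 1 or 3, or defender replicate 2 or 3 was left out (adjusted p up to 0.117 over the alternatives). LOC100578899, which the NCBI list also names Cav1a, as used for a voltage-gated calcium channel, had 2 exons of 108 bases. The first averaged 0.543 in defenders, 0.63 in foragers, 0.839 in nurses and 0.439 in newly emerged workers, and was called in nurses (difference 0.401 ± 0.072, adjusted p = 0.0013) and foragers (0.192 ± 0.072, adjusted p = 0.031). The second, LOC100578899.1, averaged 0.296 in defenders against 0.595 in newly emerged workers (adjusted p = 0.025).

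Syx1A encodes syntaxin 1A, a membrane protein of synaptic vesicle release. Its 111-base exon (16187071 to 16187181) had 0.593, 0.522 and 0.569 in defenders, against 0.826, 0.704 and 0.793 in newly emerged workers, which did not overlap (adjusted p = 0.015). The F test over all groups did not pass (adjusted p = 0.059), with means of 0.678 in foragers and 0.7 in nurses. Glurb, a metabotropic glutamate receptor, had a 252-base exon at 0.886 in defenders, 0.805 in foragers and 0.888 in nurses, against 0.583 in newly emerged workers. It was called higher than in newly emerged workers in defenders and nurses but not in foragers. Its F test over all groups did not pass (adjusted p = 0.085).

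All 4 events in Per and E74, the genes listed for transcription and the clock, had lower inclusion in each group than in newly emerged workers. Of the whole table, 38.5% was called lower in defenders, 39.2% in foragers and 30.9% in nurses. Since 3 of the 4 events measure 1 exon of Per, the count is no pattern of such genes. Per encodes period, a repressor of the circadian clock. Its 3 events share the start 10042398 and differ in the exon's end, so they measure 1 exon with 3 ends, of 113, 128 and 131 bases. The 113-base form had 0.495, 0.484 and 0.552 in defenders, 0.488, 0.464 and 0.415 in foragers and 0.446, 0.514 and 0.496 in nurses, against 0.704, 0.938 and 0.735 in newly emerged workers. The newly emerged libraries lay above all others, and the gene's level was not called (65.9 CPM in defenders, 73.9 in foragers, 79.5 in nurses and 80.9 in newly emerged workers). E74, an ETS transcription factor induced by ecdysone in Drosophila, had a 178-base exon at 0.646 ± 0.022 in defenders, 0.61 ± 0.087 in foragers and 0.681 ± 0.067 in nurses, against 0.843 ± 0.018 in newly emerged workers (SD, n = 3 each).

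In the list of RNA binding and translation, the only gene found by symbol was Eif4g, the scaffold of the cap-binding complex that starts translation. Its 219-base exon (16285992 to 16286210) had 0.25, 0.361 and 0.413 in defenders and 0.373, 0.441 and 0.409 in foragers, against 0.6, 0.465 and 0.534 in nurses and 0.597, 0.599 and 0.558 in newly emerged workers. Defenders and foragers lay below every library of the other groups. Gfat2, the enzyme that opens the hexosamine pathway, had a 21-base exon whose levels spread widely, from 0.292 to 0.768 in foragers against 0.824 to 0.915 in newly emerged workers. The F test gave an adjusted p of 0.14, and the call in foragers (adjusted p = 0.035) was lost without any 1 of the newly emerged libraries or without forager replicate 1 or 2 (adjusted p up to 0.147 over the alternatives).

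The largest differences of all were in LOC113218812, where 3 exons of 39, 216 and 225 bases were mostly skipped in newly emerged workers. The 39-base exon of LOC113218812.1 (10815025 to 10815063) had 0.799, 0.772 and 0.831 in defenders, 0.814, 0.903 and 0.825 in foragers and 0.784, 0.812 and 0.814 in nurses, against 0.17, 0.142 and 0.216 in newly emerged workers. The 216-base exon of LOC113218812 (10811411 to 10811626) had 0.661, 0.549 and 0.666 in defenders, 0.683, 0.766 and 0.799 in foragers and 0.447, 0.568 and 0.572 in nurses, against 0.077, 0.059 and 0.086 in newly emerged workers. The forager difference of 0.675 ± 0.049 (limma adjusted p = 1.9e-06) was the widest among the events. The gene's level was also higher in defenders and foragers than in newly emerged workers, by log2 fold changes of 0.40 and 0.46 (edgeR adjusted p = 0.008 and 0.0025), and had 0.22 in nurses (0.09).

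Other exons had higher inclusion than in newly emerged workers. The 184-base exon of LOC551770 (3723554 to 3723737) averaged 0.612 ± 0.042 in defenders, 0.726 ± 0.041 in foragers and 0.678 ± 0.086 in nurses, against 0.229 ± 0.033 in newly emerged workers. LOC552286 had a 235-base exon that averaged 0.893 ± 0.13 in nurses, against 0.32 ± 0.046 in newly emerged workers. Its defender libraries spread from 0.44 to 1. The 29-base exon of LOC724646 averaged 0.601 ± 0.012 in defenders and 0.667 ± 0.30 in nurses, against 0.117 ± 0.12 in newly emerged workers, while foragers averaged 0.268 ± 0.17; its call in defenders (adjusted p = 0.0072) was lost on the logit scale (0.0534). LOC410154 was called in nurses alone (0.838 ± 0.14, against 0.357 ± 0.27 in newly emerged workers; adjusted p = 0.011). LOC551469, at 2.67 to 3.28 CPM, averaged 0.771 ± 0.21 in defenders, against 0.33 ± 0.10 in newly emerged workers, and its call (adjusted p = 0.021) was lost without newly emerged replicate 2 or defender replicate 2 (adjusted p up to 0.0986 over the alternatives).

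Exons skipped more often than in newly emerged workers included that of the event LOC100579059, whose 128-base exon (6312867 to 6312994) had 0.304, 0.333 and 0.472 in defenders, 0.172, 0.304 and 0.217 in foragers and 0.478, 0.429 and 0.571 in nurses, against 0.771, 0.923 and 0.829 in newly emerged workers. The level differed with the neighbouring exons used: the same exon averaged 0.091 in defenders, 0.123 in foragers, 0.141 in nurses and 0.401 in newly emerged workers in LOC100579059.1. In LOC100579059.2 it averaged 0.564 in defenders, 0.656 in foragers, 0.707 in nurses and 0.885 in newly emerged workers. The 108-base exon of LOC411958 averaged 0.151 ± 0.078 in defenders, 0.135 ± 0.011 in foragers and 0.109 ± 0.079 in nurses, against 0.581 ± 0.11 in newly emerged workers. That gene's level was lower too, at 20.4, 11.4 and 16.2 CPM in those groups, against 45.8 CPM in newly emerged workers. The 219-base exon of LOC551604 averaged 0.157 ± 0.019 in defenders, 0.108 ± 0.012 in foragers and 0.349 ± 0.044 in nurses, against 0.525 ± 0.098 in newly emerged workers. LOC408351 averaged 0.183 ± 0.12 in foragers and 0.186 ± 0.087 in nurses, against 0.702 ± 0.070 in newly emerged workers. Its defender libraries read 0.714, 0.167 and 0.167, so that 1 of them lay with the newly emerged workers.

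Further exons of this kind were named by a rule that required a call in the comparison given. LOC413835 averaged 0.346 ± 0.014 in nurses, against 0.703 ± 0.045 in newly emerged workers. LOC552573 averaged 0.419 ± 0.092 in nurses, against 0.782 ± 0.030, and LOC727311 averaged 0.224 ± 0.15, against 0.661 ± 0.14. In defenders, LOC100576722 averaged 0.379 ± 0.18, against 0.827 ± 0.040 in newly emerged workers, and LOC102654895 averaged 0.187 ± 0.094, against 0.619 ± 0.13. LOC100576722 itself was at 7.69 CPM in defenders, against 91.6 CPM in newly emerged workers, and LOC102654895 was below 1 CPM in every group mean.

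Between foragers and nurses, 36 of 278 events in 28 genes were called (12.9%, against 12.8% of the table), 14 higher (4.86% of the table) and 22 lower (7.99%) in foragers. Libraries did not overlap in 77 events (27.1%). With only these 6 libraries in the fit, limma called 0 events, the 10 events named by rule then having adjusted p-values of 0.0513 to 0.0869; 75 events had an unadjusted p under 0.05 in the fit of all libraries. The 33-base exon of LOC726786 (4928376 to 4928408) had 0.632, 0.871 and 0.693 in foragers, against 0.392, 0.2 and 0.12 in nurses (difference 0.495 ± 0.090, adjusted p = 0.0084). The 121-base exon of LOC409843 and the 31-base exon of TpnT, given above, were higher in foragers by 0.365 ± 0.051 (adjusted p = 0.0049) and 0.206 ± 0.036 (0.0084).

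LOC409821 had a 54-base exon (15717461 to 15717514) at 0.905, 1 and 0.858 in foragers, against 0.532, 0.752 and 0.549 in nurses. LOC413438 had a 45-base exon (8887449 to 8887493) at 0.626, 0.58 and 0.694 in foragers, against 0.293, 0.29 and 0.398 in nurses, while newly emerged workers lay with the foragers at 0.623, 0.603 and 0.503. Lower in foragers were the 48-base exon of LOC409588.1 (0.327 ± 0.040, against 0.613 ± 0.11 in nurses), the 502-base exon of LOC552017 (0.56 ± 0.10, against 0.846 ± 0.059) and the 27-base exon of LOC100578776 (0.411 ± 0.043, against 0.687 ± 0.071). Calls of LOC413021, LOC551214 and LOC412439 (adjusted p = 0.033, 0.033 and 0.017) were each lost without any of 4 libraries, which included forager replicate 1 each time and otherwise other forager or nurse libraries. Over the alternatives their adjusted p-values went up to 0.106, 0.123 and 0.0668. The summed level of 6 royal jelly protein genes, which glands of the head express, was 11.4 to 85.1 CPM in foragers and 294 to 2347 CPM in nurses (11.7 to 16 CPM in newly emerged workers), and that of PPO, the 1 hemocyte marker listed, was 9.25 to 9.99 CPM in foragers and 26.4 to 48.8 CPM in nurses (log2 fold change -1.93, edgeR adjusted p = 0.0002). Their part in these events was not tested.

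Between defenders and nurses, 8 events in 6 genes were called (2.88%, against 2.78% of the table), 4 higher and 4 lower (1.39% of the table each way), and libraries did not overlap in 79 events (27.4%). The 4 higher in defenders were the 121-base exon of LOC409843 (difference 0.319 ± 0.051, adjusted p = 0.017), the 31-base and 18-base exons of TpnT (0.184 and 0.164) and the 68-base exon of LOC410058. The 4 lower were those of LOC409588.1, LOC100578776 and TpnI and the 118-base exon of LOC409843.4 (differences of -0.27, -0.256, -0.193 and -0.186). Apart from the first, each had an adjusted p of 0.041. LOC410058 (1464560 to 1464627) had 0.388, 0.447 and 0.449 in defenders, against 0.267, 0.213 and 0.291 in nurses. This count rested on single libraries: leaving out each library in turn gave 0 to 12 calls, 0 without defender replicate 2 and 0 without defender replicate 3. With only the 6 libraries of these groups it was 0, and 67 events had an unadjusted p under 0.05. The royal jelly protein genes summed to 47.7 to 104 CPM in defenders, against 294 to 2347 CPM in nurses. PPO had 10.4 to 12.3 CPM in defenders, against 26.4 to 48.8 CPM in nurses (log2 fold change -1.69, edgeR adjusted p = 0.00056). The part of either in these events was not tested.

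Between defenders and foragers, limma called 0 of 278 events (0% of the table), while 36 had an unadjusted p under 0.05 and libraries did not overlap in 48 events (17% of the table). The smallest adjusted p was 0.213. It belonged to LOC408342, whose 216-base exon had 0.444, 0.5 and 0.407 in defenders, against 0.231, 0.037 and 0.158 in foragers. The widest difference, -0.465, belonged to LOC409821.4, at 0.137, 0.476 and 0.066 in defenders, against 0.515, 1 and 0.56 in foragers. In 149 of the 278 events the 95% interval of the difference lay within 0.2 on either side of 0, and the median half-width of the interval was 0.13. In the other events the interval reached 0.2 or beyond.

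Defender libraries lay apart from all 9 others in 5 events. In LOC725699, at 3.36 to 4.52 CPM, the 167-base exon had 0.4, 0.333 and 0.429 in defenders, 0.6, 1 and 0.733 in foragers, 0.724, 0.619 and 1 in nurses and 0.778, 0.667 and 0.697 in newly emerged workers. LOC725699.1 is the same exon with another start, 152 bases long. The 1230-base exon of LOC412896.5 had 0.965, 0.9 and 0.919 in defenders, 0.809, 0.829 and 0.792 in foragers, 0.6, 0.8 and 0.897 in nurses and 0.697, 0.538 and 0.711 in newly emerged workers. The other such events were in LOC408342 and LOC725946. Foragers and nurses together lay above the other groups in both events of LOC725923 and both of LOC411723; the 162-base exon of LOC725923, for example, had 0.418 ± 0.017 in defenders, 0.622 ± 0.056 in foragers, 0.533 ± 0.14 in nurses and 0.354 ± 0.012 in newly emerged workers.

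The skipped exons were mostly short and often a multiple of 3. The 278 events held 264 distinct exons of 6 to 10587 bases with a median of 131, and 14 of them were 27 bases or shorter. Of the 264, 144 (54.5%) had a length that is a multiple of 3, against 183 of 465 neighbouring exons that were not skipped exons themselves (39.4%). Within the same range of lengths, 70 to 225 bases, the shares were 49.2% of 132 and 39.5% of 248. Events with exons that are a multiple of 3 were called by the F test in 118 of 152 cases, against 111 of 126 for the rest, and their median inclusion in newly emerged workers was 0.537 against 0.549. In foragers against newly emerged workers, 37.5% of the table was called higher and 39.2% lower. By exon length, 7 events were higher and 5 lower of 15 up to 27 bases, and 17 and 30 of 63 over 27 to 80 bases. The counts were 40 and 50 of 114 over 80 to 200 bases, 29 and 21 of 60 over 200 to 500 bases, and 12 and 7 of 26 over 500 bases. These are descriptions, since exons of 1 gene are not independent and no test was made.

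Genes with several events did not always change in 1 direction. Among the 206 genes, 160 had 1 event and 46 had 2 or more, with 118 events between them. In foragers against newly emerged workers, 41 genes had at least 2 called events, and in 11 of these they went both ways. LOC409665, LOC409843 and LOC412896 had 6 events each. All 6 were called in LOC409665, 5 higher and 1 lower, and 5 of 6 in LOC412896, all higher. LOC409821 had 5 events on 4 exons, of which 2 were higher and 3 lower; the forager call of LOC409821.4 (difference 0.469, adjusted p = 0.017) was lost without newly emerged replicate 1 or forager replicate 2 (adjusted p up to 0.0676 over the alternatives). In all, 13 exons appeared in more than 1 event, in 27 events together, with other neighbours each time. Among the genes, 195 are protein coding and 11, with 13 events, are listed as long noncoding RNA.

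The level of the host genes is a readout that the choice of events did not use directly. All 206 host genes passed the filter on low counts, and their mean levels ran from 0.672 to 10998 CPM with a median of 69.4. By edgeR, 101 of 206 were called in nurses against newly emerged workers (49%, against 39.6% of 11271 genes), 30 higher and 71 lower. In foragers 115 were called (55.8%, against 47.9%), 31 higher and 84 lower. In defenders 85 were called (41.3%, against 34.4%), 34 higher and 51 lower. Calls in each direction were not counted over all 11271 genes. These splits therefore have no background beside them and are not read as a trait of the host genes. The median log2 fold change of the host genes was -0.19 in nurses, -0.19 in foragers and -0.08 in defenders, while over all genes it was 0.02, 0.01 and 0.00.

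Many genes with a called exon had no called change in level, though against newly emerged workers such changes were no rarer among them than among all genes. In foragers against newly emerged workers, 157 genes had a called event, and the level of 65 of them was not called. The number was 76 of 142 in nurses and 86 of 152 in defenders. GluCl and Per are among these. Of the genes with a called event, 58.6% were called in level in foragers, against 47.9% of all genes. The shares were 46.5% against 39.6% in nurses and 43.4% against 34.4% in defenders. Across the 278 events, the inclusion difference and the log2 fold change of the gene had a Pearson r of 0.123 in foragers, 0.098 in nurses and 0.188 in defenders (Spearman 0.194, 0.132 and 0.261), a description over events of which some share a gene. In foragers against nurses, 14 host genes were called (6.8%, against 4.01% of all genes), and 26 of the 28 genes with a called event were not among them. In defenders against nurses 31 were called (15%, against 7.74%), and none of the 6 genes with a called event was among them. Between defenders and foragers edgeR called 0 host genes (0% of all genes). An unadjusted p under 0.05 was reached by 52 of the 206 host genes and by 2705 of the 11271 genes. DESeq2 called 29 host genes there. The edgeR counts of host genes in the comparisons without newly emerged workers rested on single libraries. The number was 1 in defenders against nurses without defender replicate 3 and 4 in foragers against nurses without nurse replicate 2. It was up to 29 in defenders against foragers when 1 library was left out. Calls over all genes were not counted with DESeq2 or without single libraries.

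**Figure D5:**
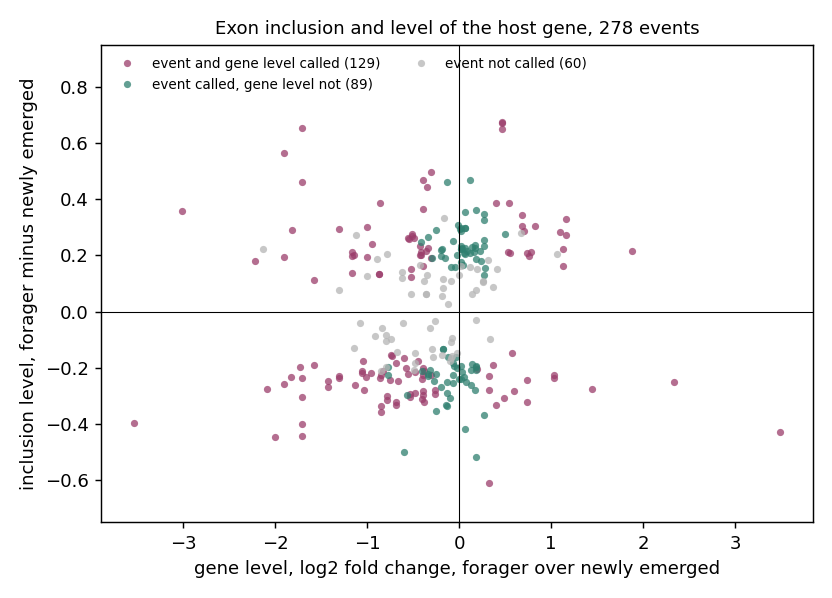
Each point is 1 of the 278 events; the x axis is the log2 fold change of its gene and the y axis the difference in inclusion, both forager over or minus newly emerged. In 129 events both were called, in 89 the event was called and the gene was not, and 60 events were not called.

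Replicate spread was wider where the gene was low. The median SD within groups was 0.112 in the 70 events of the least abundant genes (0.672 to 33 CPM), 0.0707 and 0.0654 in the next groups of 69 each and 0.0568 in the 70 events of the most abundant (315 to 10998 CPM). The F test called 72.9% of the first, 79.7% and 91.3% of the next and 85.7% of the last. In 34 events at least 1 library was at exactly 0 or 1; their median gene level was 57.6 CPM, against 107 CPM for the other 244. The event with the widest spread over the 12 libraries was LOC409902, with an SD of 0.293. Its forager libraries read 0.184, 0.645 and 0, and its call against newly emerged workers (adjusted p = 0.026) was lost without newly emerged replicate 2 or 3 or forager replicate 1 or 3 (up to 0.0971 over the alternatives). The narrowest spreads were those of LOC410108.1 and LOC409530, with SDs of 0.0856 and 0.0862. LOC409530 was called in defenders at an adjusted p of 0.016, but not without defender replicate 1 (0.0562).

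Of the genes of splicing regulation that could be found by symbol, 4 were tested. Against newly emerged workers edgeR called 3 of them in nurses, 4 in foragers and 2 in defenders. Of all 11271 genes, 39.6%, 47.9% and 34.4% were called in those comparisons. The counts are therefore not read as a trait of splicing regulators. In insects tra2 and Snf are an activator of exon use and a protein of the U1 and U2 particles, and Csd and Fem act in the sex-determining splicing pathway of the bee. Levels of tra2 were 86.3, 85.3 and 87.8 CPM in defenders, 76.3, 78.4 and 75.5 in foragers and 87.7, 94 and 80.5 in nurses, against 65.4, 61.1 and 67.5 in newly emerged workers. All 9 libraries lay above those of newly emerged workers. The log2 fold changes were 0.42, 0.25 and 0.43 (edgeR adjusted p = 0.001, 0.019 and 0.00098). Snf was higher as well, by 0.30, 0.41 and 0.43 (0.011, 0.0011 and 0.0013). Csd was lower in foragers (-0.64, adjusted p = 0.0049) and nurses (-0.43, 0.042), and Fem in foragers (-0.38, 0.014). The call of Csd in nurses was lost without any 1 of 7 libraries (newly emerged replicate 1 or 2, nurse replicate 1 or 3, or any defender; adjusted p up to 0.175) and with upper-quartile factors (0.108). In foragers the calls of Fem and tra2 were lost without newly emerged replicate 2 (0.0806 and 0.0539), and that of Fem with upper-quartile factors (0.0776). In each of the 3 other comparisons edgeR called 0 of the 4. Of all genes it called 4.01% in foragers against nurses, 7.74% in defenders against nurses and 0% in defenders against foragers. In that order, 1, 1 and 2 of the 4 had an unadjusted p under 0.05, beside 1939, 3102 and 2705 of the 11271 genes. DESeq2 called 1 of the 4 between defenders and foragers, and 0 in defenders or foragers against nurses.

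The 12 libraries held 66708813 to 119703929 gene counts. Of the neuron markers, 3 of 5 listed were tested (Or2, Syt1 and Syx1A), with a summed level of 1726 to 1905 CPM in defenders, 1562 to 1754 in foragers, 1610 to 1825 in nurses and 1496 to 1527 in newly emerged workers. Most of that sum was Syx1A. Or2, the shared odorant receptor subunit of olfactory neurons, differed between groups, with 325, 385 and 388 CPM in defenders, 198, 246 and 152 in foragers, 238, 189 and 101 in nurses and 323, 340 and 308 in newly emerged workers. It was lower in foragers and nurses than in newly emerged workers (log2 fold changes of -0.71 and -0.88, edgeR adjusted p = 0.036 and 0.016) and higher in defenders than in nurses (1.06, 0.031). Syt1 and Syx1A went the other way in nurses, higher than in newly emerged workers (log2 fold changes of 0.35 and 0.38, edgeR adjusted p = 0.0069 and 0.018). Syx1A was also higher in foragers (0.33, 0.028) and defenders (0.32, 0.045), where Syt1 was not called (0.088 and 0.78). Against nurses, Syt1 was lower in defenders (-0.31, 0.046) and Syx1A was not called (-0.06, 0.76). The part of these genes in the inclusion levels was not tested.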

How the data were processed

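Titles gave the groups and 2 replicate numbers, which disagree for 1 nurse and 1 forager library; the first of them served as replicate number, also in the replicate block. Per the file headers, the deposited splice tables hold a fraction per event and library, the inclusion level, and a further table holds gene counts that the authors had not normalized. Splicing program, aligner, build and counting: not given in the sources used here. Protocols among the labels are those of a human chromatin assay and were left aside. Inclusion levels were fitted with limma 3.58.1 in R 4.3.3 (4 group means, 12 libraries, 8 residual degrees of freedom, two-sided), adjusted over 288 events within each comparison. Gene counts were fitted with edgeR 4.0.16 (TMM, filterByExpr, quasi-likelihood, robust), giving 11271 of 12319 genes; CPM use TMM sizes. DESeq2 1.42.0 was an alternative. Both steps were tested on simulated data.

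The events and lists were chosen with earlier results of these data known. Named events are, per comparison and direction, the 5 called ones with the largest difference and no overlap of libraries, at most 1 a gene; up to 2 per functional list by F test; and the 2 widest and 2 narrowest SDs. TpnT.1, TpnT.2, TpnI.1, TpnI.2, GluCl.2, E74, osp, Glurb, LOC100578899, further events of LOC113218812 and LOC409843, LOC725782, LOC408342, LOC725699, LOC412896, LOC725923 and others apart from these rules were named after their values were seen. The lists were to use gene descriptions; the gene list given has none, so only symbols and synonyms could be matched. In the inclusion levels, deviations from the group means were correlated between libraries of different groups. The correlations ran from -0.143 to 0.126 for equal and from -0.17 to 0.152 for unequal replicate numbers. Gene counts were not examined in this way. With the replicate block, host genes called went from 31 to 52 in defenders against nurses and from 0 to 22 in defenders against foragers. Calls over all genes were not counted with the block. Whether equal numbers mark a shared colony or batch thus cannot be told.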

Additional observations from a re-analysis of the deposited data

How the results depend on the processing

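On the logit scale defenders against nurses gave 5 called events, on the arcsine square root scale 4 and with a trended, robust prior 3. With only the 6 libraries of the groups compared, foragers against nurses and defenders against nurses gave 0 each. With the replicate block, defenders against nurses gave 3 events and 52 host genes, and defenders against foragers 1 event, 22 host genes and 1 regulator; it moved no other count by more than 1.5 times. DESeq2 called 26 host genes in foragers against nurses, 55 in defenders against nurses and 29 in defenders against foragers. In the last it called 1 regulator. Calls over all genes were not counted under any alternative, so these counts of host genes and regulators have no background share.

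Leaving out each library in turn gave 166 to 194 called events in nurses against newly emerged workers, 183 to 220 in foragers, 167 to 207 in defenders and 193 to 230 in the F test, lowest each time without newly emerged replicate 2. It gave 26 to 41 in foragers against nurses, 0 to 12 in defenders against nurses and 0 to 1 in defenders against foragers. Host gene counts were 81 to 115, 92 to 120 and 69 to 91 against newly emerged workers, 4 to 15 in foragers against nurses (4 without nurse replicate 2), 1 to 48 in defenders against nurses (1 without defender replicate 3) and 0 to 29 in defenders against foragers. Regulators were 2 to 3, 2 to 4 and 2 against newly emerged workers, and 0, 0 and 0 to 1 otherwise.

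Of 75 named calls, 51 passed under every alternative, 59 whichever library was left out, and none changed direction. Upper-quartile factors, no filter, the filter on mean inclusion (0.05 to 0.95) and the fit of all 5 tables moved no count by more than 1.5 times; every event had a value in all 12 libraries. Reads per event are not given, so low genes cannot be weighted by depth.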
